A study of Mus musculus with 9 samples.

Results

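The voltage-gated and potassium channel genes were followed in 9 single cells from the hypothalamic paraventricular nucleus of the mouse. Members were the rows of the deposited table whose symbol starts with the stem of a voltage-gated sodium or calcium channel, a potassium channel, an HCN channel, the sodium leak channel Nalcn or the sperm channel CatSper. This rule found 148 of the 23528 gene names in the table, and it uses symbols only, not measured values. The cells came from C57Bl6/N mice aged 21 to 28 days, were captured one by one on a microfluidic chip after papain dissociation, and carry 1 common label, secretagogin-positive, after a calcium-binding protein of neuroendocrine cells. Each cell is named by its label's number, from cell 1 to cell 9. The labels name no animal for any cell and give no other group, so the 9 cells were treated as 1 sample and no test between groups was made. The values are whole-number counts, called molecules after the name of the deposit.

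Voltage-gated channels turn changes of membrane potential into ion flow. Sodium channels carry the upstroke of the action potential, potassium channels end it and set the resting potential, and calcium channels couple it to the release of transmitter and peptide hormone. The pore is formed by subunits called alpha, and many channels also have auxiliary subunits that alter gating or carry the channel to the membrane. HCN channels open on hyperpolarization and pass the pacemaker current, inward rectifiers (Kir) and 2-pore-domain channels (K2P) hold the resting potential, and calcium-activated potassium channels link firing to calcium entry. In the paraventricular nucleus such currents shape the burst and tonic firing of neuroendocrine neurons.

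The cells differed in depth, from 1021 gene molecules in cell 1 to 26466 in cell 5, with a median of 9573. Cell 6 was the next shallowest with 3393. Mitochondrial genes, which these totals include, gave 34.25% of the molecules in cell 6, the highest share, and 4.31% in cell 9, the lowest. A count of 0 allows up to 3 molecules, which per 10000 gene molecules is 29.4 for cell 1, 8.84 for cell 6 and 1.13 for cell 5. Of the 12 neuron markers listed, all 12 were detected, and the list summed to 39 molecules in cell 4 and 287 in cell 5 at the extremes. In cell 1, 61 of its 62 neuron-marker molecules came from the non-coding RNA Meg3. Markers of other cell types were plentiful in 4 cells. Cell 4 held 2367 molecules of blood markers and 116 of endothelial markers, cell 5 held 427 of oligodendrocyte markers, cell 7 held 55 of endothelial markers, and cell 8 held 303 of ependymal and tanycyte markers and 29 of astrocyte markers. In the other 5 cells no list of another cell type exceeded 3 molecules. Scgn, the transcript behind the label, was detected in 5 cells, where cell 3 had 11 molecules, cell 8 had 3 and the others, cells 2, 5 and 9, had 1 each. It was at 0 in cells 1, 4, 6 and 7, and the number of detected genes and the summed level are also given without these 4 cells. Cell 9 is the only one whose column name gives lane 4, the rest giving lane 3, so no value within a lane could be set against it. Markers of microglia and of oligodendrocyte precursors were at 0 in all 9 cells.

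Of the 148 genes, 69 had at least 1 molecule in at least 1 cell, which is 46.6% against 41.4% of all gene names in the table. With at least 2 molecules in some cell, 43 remained, or 29.1% against 25.7% of all gene names. In at least 5 cells, 7 were detected, or 4.73% against 7.00% of all gene names. These shares lie near those of the table as a whole. Among the 7 were Kcnq1ot1 in 7 cells, Scn2a1, Scn3a and Kcnd3 in 6 cells each, and Kcnip4 and Cacna2d1 in 5 cells each. With 2 molecules required per cell, 2 of them (Kcnq1ot1 and Scn2a1) were in at least 5 cells, and without cell 9 the number detected in at least 5 cells was 4. Leaving out cells 4, 5, 7 and 8 gave 53 genes detected, and 9 in at least 3 of the 5 cells that were left. Leaving out cells 1, 4, 6 and 7, where Scgn was at 0, gave 58 genes detected, and 16 in at least 3 of 5 cells. The latter choice drops the shallowest cells, 1 and 6, and keeps the deepest, cell 5. Shares over all gene names were not counted for either choice of 5 cells, so these numbers are not read as a result about channel genes.

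All members together held 313 molecules, or 34.3 per 10000 gene molecules (exact 95% Poisson interval 30.6 to 38.3, counting error only). Their median was 0 molecules, as it was over all gene names. Among detected genes the median was 2 molecules for the members and 3 for all gene names. No member was detected in all 9 cells. Of the 69 detected members, 34 were found in 1 cell only, and in 81 of the 153 pairs of a cell and a detected member (52.9%) the count was exactly 1. No member had more than 9 molecules in any cell.

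**Figure D1:**
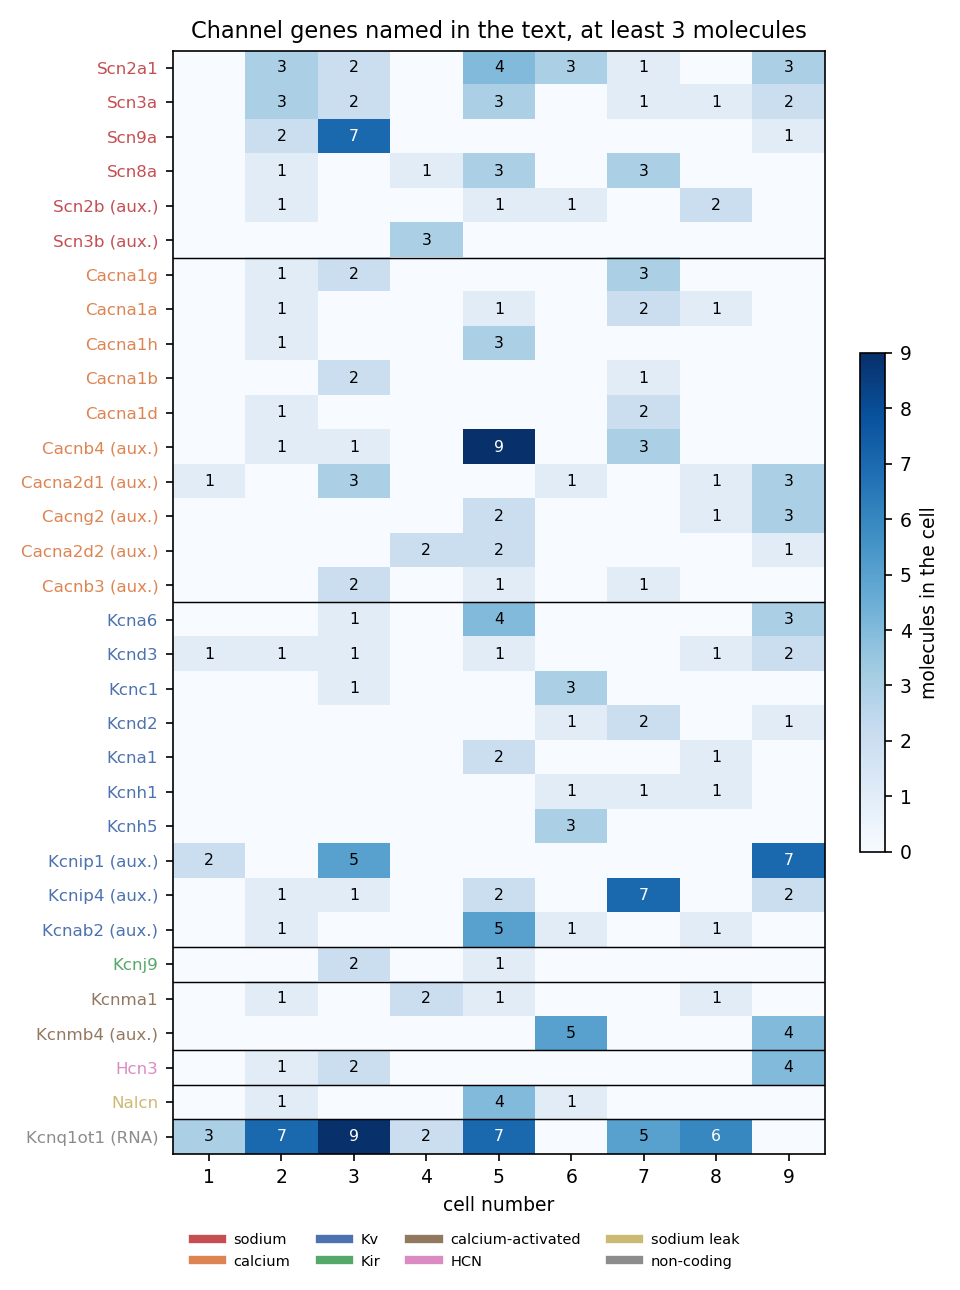
Molecules of channel genes with at least 3 molecules in all (rows; genes not reported here are left out, coloured by class, auxiliary subunits marked) in each of the 9 cells (columns); empty squares are counts of 0. Scn2a1 and Scn3a are spread over 6 cells each, whereas the 9 molecules of Kcnmb4 lie in cells 6 and 9 and 7 of the 10 molecules of Scn9a lie in cell 3.

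The level of the channel genes differed between cells by more than counting error. For the 147 genes that encode channel subunits, the value was 11.6 per 10000 gene molecules in cell 4 (interval 6.37 to 19.5) and 12.9 in cell 8 (7.52 to 20.7). It was 22.7 in cell 5 (17.3 to 29.2). It was 37.6 in cell 2 (26.3 to 52.1), 39.1 in cell 3 (28.2 to 52.9), 43.3 in cell 7 (29.4 to 61.5), 57.5 in cell 9 (41.9 to 76.9) and 70.7 in cell 6 (45.3 to 105). Cell 6 had the highest mitochondrial share and cell 9 the lowest, and the part of this in their levels was not tested. Cell 1 had 5 subunit molecules, or 49.0 per 10000, with an interval of 15.9 to 114 that spans nearly all other cells. The intervals of cells 4 and 8 lie below those of cells 2, 3, 6, 7 and 9, while cells 2, 3 and 7 cannot be ordered among themselves. The neuron markers were also lowest in cells 4 and 8, at 32.4 and 32.6 per 10000, and at 108 in cell 5 against 123 to 165 in cells 2, 3, 6, 7 and 9. This order depended on Meg3. Without it the markers were lowest in cells 4 and 1, at 9.15 and 9.79. Cells 8, 6 and 7 followed with 23.5, 32.4 and 33.5, and cell 5, at 93.0, was exceeded only by cell 9, at 121. Cells 4 and 8 carry markers of blood, endothelial, ependymal or astrocyte cells, and the part of this in their low channel level was not tested. Leaving out cells 4, 5, 7 and 8 moved the summed level of all members from 34.3 to 52.5 per 10000, and leaving out cells 1, 4, 6 and 7 gave 33.8.

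**Figure D2:**
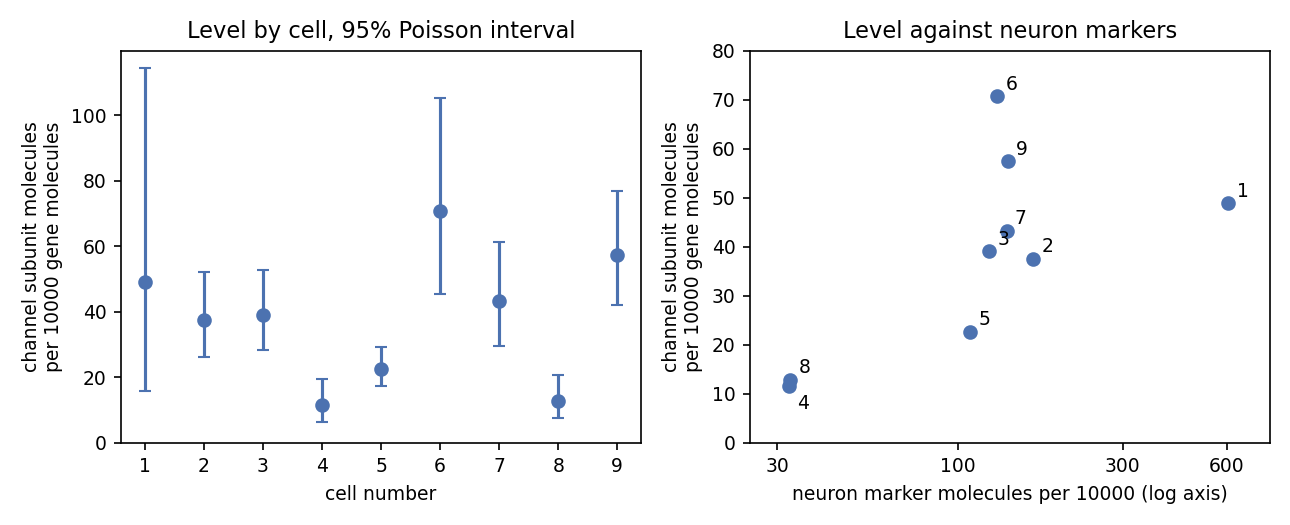
Left, channel subunit molecules per 10000 gene molecules in each cell with exact 95% Poisson intervals; right, the same level against neuron marker molecules per 10000 on a log axis, with cell numbers. Cells 4 and 8 are lowest on both measures as plotted, with Meg3 among the markers, at 11.6 and 12.9 subunit molecules per 10000.

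The number of channel genes detected per cell ran from 5 in cell 1 to 27 in cell 2. Cell 5 had 26, cell 3 had 22, cells 7 and 9 had 17 each, cell 8 had 16, cell 6 had 14 and cell 4 had 9. Cell 5 was the deepest cell and cell 2 had about the median depth. In cell 2, 18.2% of the members and 14.8% of all gene names were detected. In cell 6 the shares were 9.46% and 4.85%. The share of members was below that of all gene names in 4 cells, at 17.6% against 23.5% in cell 5, 10.8% against 17.5% in cell 8, 6.08% against 10.2% in cell 4 and, by a small margin, 11.49% against 11.96% in cell 9. When the 7 deeper cells were thinned to the 7160 molecules of cell 7, leaving out cells 1 and 6, the expected number was highest in cell 2, at 21.9. Cells 3, 7 and 9 followed with 18.0, 17.0 and 16.6, and cells 5, 8 and 4 came last with 12.6, 9.64 and 6.90. Over all gene names the expected number was also highest in cell 2, at 2986, and lowest in cell 4, at 1764. It was 2807, 2568 and 2702 in cells 3, 7 and 9, and 2914 and 2896 in cells 5 and 8.

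**Figure D3:**
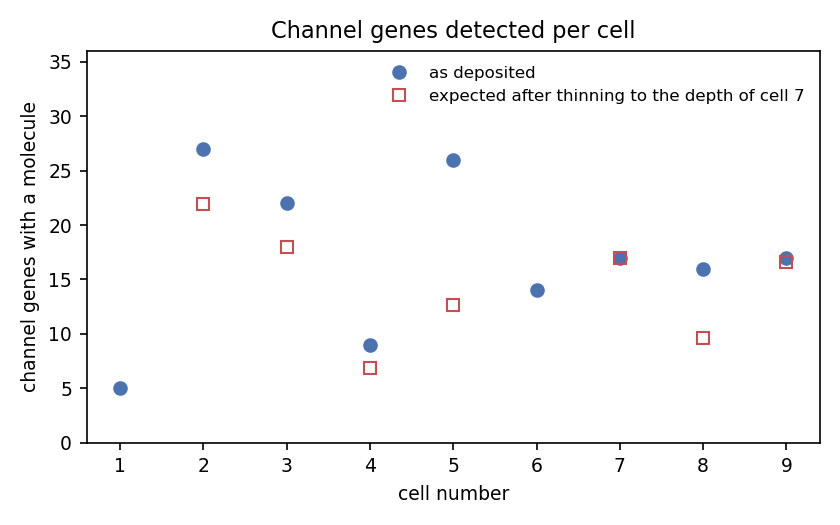
Number of channel genes with at least 1 molecule in each cell as deposited (filled circles) and expected after thinning 7 cells to the depth of cell 7 (open squares); cells 1 and 6 are shallower and were not thinned. At equal depth cell 2 is highest with 21.9 genes and cell 4 lowest with 6.90. These cells are also highest and lowest over all gene names, at 2986 and 1764.

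By class, the voltage-gated potassium (Kv) genes had the most molecules, 101 of the 274 from subunit genes (36.9%, exact Clopper-Pearson interval 31.1 to 42.9%). Calcium channel genes had 68 (24.8%, interval 19.8 to 30.4%) and sodium channel genes 57 (20.8%, interval 16.15 to 26.1%). Calcium-activated potassium channel genes had 19, HCN genes 9, Kir genes 7, K2P genes 6, Nalcn 6 and the CatSper genes 1. Counted per kilobase of exon, the Kv class stayed first at 42.2%, followed by calcium at 19.4% and sodium at 14.2%. All 4 potassium classes together had 133 molecules, or 48.5% (interval 42.5 to 54.6%). Detection ran from 3 of 4 HCN genes, 16 of 26 calcium, 8 of 14 sodium, 6 of 12 calcium-activated and 25 of 53 Kv genes down to 4 of 14 K2P, 4 of 15 Kir and 1 of 8 CatSper genes. Over all gene names the share was 41.4%. The shares of the Kv (47.2%) and calcium-activated genes (50%) lie near it, and several classes hold few genes, so this order is not read as a result.

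Pore-forming subunits gave 172 of the 274 molecules (62.8%, interval 56.8 to 68.5%). Detected were 48 of 106 alpha genes (45.3%) and 20 of 41 auxiliary genes (48.8%), both near the 41.4% of all gene names. The balance differed by class. Alpha genes held 48 of the 57 sodium channel molecules, 63 of the 101 Kv molecules, 9 of the 19 calcium-activated molecules and only 24 of the 68 calcium channel molecules. Per cell, the alpha share ran from 40.0% in cell 1, which rests on 5 molecules, to 72.2% in cell 2, with a median of 64.3%, and the intervals of all 9 cells overlap.

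**Figure D4:**
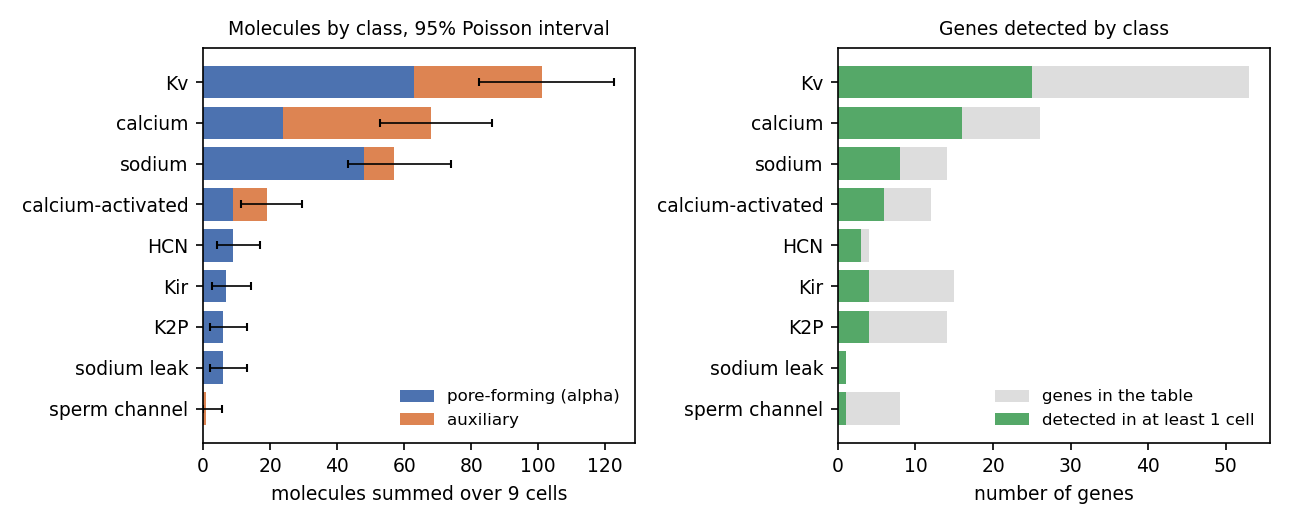
Left, molecules summed over the 9 cells for each channel class, split into alpha and auxiliary subunits, with exact 95% Poisson intervals of the class sum; right, number of genes in the table and number detected. The Kv class is largest at 101 molecules, and calcium is the class of the leading 3 in which auxiliary subunits (44 molecules) exceed alpha subunits (24).

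The sodium channel genes were led by Scn2a1, the gene of a sodium channel of axons and dendrites, which lies on chromosome 2 at 65620771 to 65767447 (plus strand, GRCm38/mm10). Its 16 molecules (interval 9.15 to 26.0) were 4 from cell 5, 3 each from cells 2, 6 and 9, 2 from cell 3 and 1 from cell 7. It was at 0 in cells 1, 4 and 8. Scn3a, a sodium channel gene prominent in the developing brain, had 12 molecules, with 3 each in cells 2 and 5, 2 each in cells 3 and 9 and 1 each in cells 7 and 8. Scn9a, best known from sensory neurons and also present in neuroendocrine neurons of the hypothalamus, was uneven. Cell 3 held 7 of its 10 molecules, or 6.52 per 10000 (interval 2.62 to 13.4), cell 2 held 2 and cell 9 held 1. Cell 3 is also the cell with the most Scgn, at 11 molecules. Scn8a, the main sodium channel gene of mature axon initial segments, had 3 molecules each in cells 5 and 7 and 1 each in cells 2 and 4, so that 7 of its 8 molecules lay in cells with markers of another cell type. Of all 57 sodium channel molecules, 31 lay in the 5 cells without many such markers. Scn1a, which is typical of fast-spiking interneurons, had 1 molecule each in cells 5 and 7.

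The genes Scn3a, Scn2a1, Scn1a, Scn9a and Scn7a are neighbours within 1.33 Mb of chromosome 2, from 65457118 to 66784914. This cluster gave 40 of the 48 molecules of sodium channel alpha genes, and Scn8a on chromosome 15 gave the other 8. Scn7a was at 0, as were the muscle gene Scn4a and the sensory neuron genes Scn10a and Scn11a. The auxiliary beta subunits, which alter gating and surface level, gave fewer molecules. For Scn2b, cell 8 held 2 molecules and cells 2, 5 and 6 held 1 each. All 3 molecules of Scn3b lay in cell 4, and Scn4b had none.

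Promoter sequences are shown for the sodium and calcium channel genes with at least 8 molecules and a RefSeq window, since they show how different the starts of detected channel genes are in CpG content. Each is the stretch of 150 bases before the annotated start, 5′ to 3′ on the strand of the gene, from RefSeq (GRCm38.p6), with CpG dinucleotides in capitals. Scn2a1 lies at chr2:65620619-65620768 (plus strand), Scn9a at chr2:66634963-66635112 (minus strand), Scn8a at chr15:100870495-100870644 (plus strand), Cacnb4 at chr2:52676144-52676293 (minus strand) and Cacna2d1 at chr5:15934541-15934690 (plus strand).
Scn2a1: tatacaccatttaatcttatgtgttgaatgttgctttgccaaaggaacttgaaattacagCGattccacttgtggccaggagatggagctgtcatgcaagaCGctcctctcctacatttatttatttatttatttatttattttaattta
Scn9a: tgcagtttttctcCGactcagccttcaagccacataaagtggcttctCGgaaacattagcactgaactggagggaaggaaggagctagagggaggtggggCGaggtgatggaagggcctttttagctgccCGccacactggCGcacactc
Scn8a: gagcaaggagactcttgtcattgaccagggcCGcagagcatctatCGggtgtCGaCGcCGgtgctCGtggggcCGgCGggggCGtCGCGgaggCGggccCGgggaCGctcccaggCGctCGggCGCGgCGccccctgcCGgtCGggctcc
Cacnb4: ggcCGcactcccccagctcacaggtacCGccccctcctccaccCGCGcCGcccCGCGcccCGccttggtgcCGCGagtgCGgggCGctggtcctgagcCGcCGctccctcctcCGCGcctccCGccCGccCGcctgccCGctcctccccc
Cacna2d1: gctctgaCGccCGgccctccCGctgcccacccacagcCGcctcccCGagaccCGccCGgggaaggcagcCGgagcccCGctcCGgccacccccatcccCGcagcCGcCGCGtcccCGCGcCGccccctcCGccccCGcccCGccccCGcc

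The 2 CpG of the Scn2a1 stretch and the 5 of Scn9a stand against 21 in Scn8a, 20 in Cacnb4 and 21 in Cacna2d1. Scn2a1, with the fewest CpG, was found in the most cells of the genes shown, 6, whereas Scn9a, with the next fewest, was found in the fewest, 3. A link between CpG and the number of cells was not tested. Windows of 300 bases, from 250 before to 50 after the start, were found for 108 of the 147 subunit genes, and the first window listed was used for each gene. The median number of CpG was 17 in the 51 detected genes, 9 in the 57 that were not detected and 7 over the 27025 windows of all genes. The latter windows were neither limited to the gene names of the table nor split by detection. Whether the difference by detection is particular to channel genes was thus not tested. The letters GGGCGG, on either strand, were present in 52.9% of the detected, 45.6% of the undetected and 35.9% of all windows. The letters TATAAA, on either strand, were present in 5.88%, 3.51% and 14.2%. The motifs do not overlap each other. Which start was used in these cells is not known, and these are descriptions of annotated sequence.

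**Figure D5:**
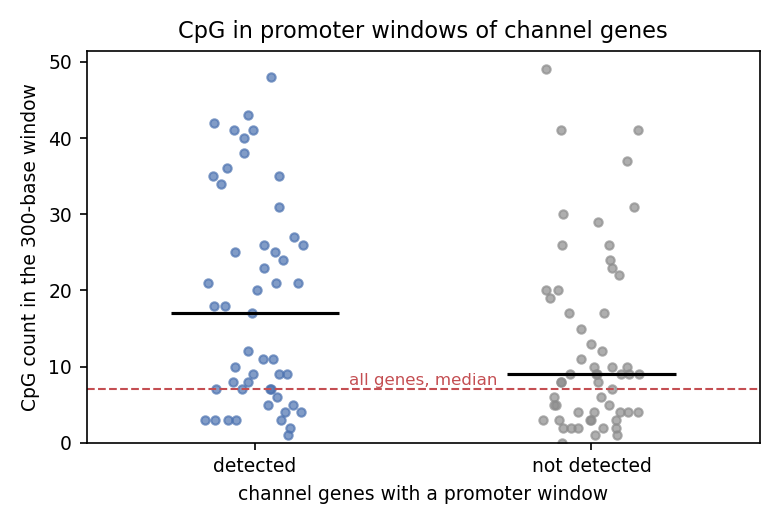
CpG dinucleotides in the 300-base promoter window of each channel gene with a window, for detected genes (51) and genes that were not detected (57); black bars are medians and the dashed line is the median over all genes. The medians are 17 and 9 against 7 over all genes, which were not split by detection, and both sets reach above 40.

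The calcium channel alpha genes were spread thinly over many types. Cacna1g and Cacna1h, which encode low-threshold T-type channels, had 6 and 4 molecules, with 3 of Cacna1g in cell 7 and 3 of Cacna1h in cell 5. Cacna1a, the gene of the P/Q-type channel of nerve terminals, was seen in 4 cells, where cell 7 held 2 molecules and cells 2, 5 and 8 held 1 each. Cacna1b, the N-type gene, had 2 molecules in cell 3 and 1 in cell 7. The L-type genes Cacna1d and Cacna1c had 3 and 2 molecules, and the R-type gene Cacna1e had 1. Cacna1i, the muscle gene Cacna1s and the retinal gene Cacna1f were at 0. Cell 7 held 8 of the 24 alpha molecules of this class and cells 4 and 9 held none. Cell 9 was nonetheless among the richest in channel molecules, with a level of 57.5 per 10000.

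The auxiliary calcium channel genes held more molecules than the pores, 44 against 24, and 21 against 11 without cells 4, 5, 7 and 8. Cacnb4, a beta subunit gene on chromosome 2 at 52428320 to 52676831 (minus strand), had 14, with 9 from cell 5, 3 from cell 7 and 1 each from cells 2 and 3. Without cells 4, 5, 7 and 8 it had 2 molecules. Per 10000 gene molecules, cell 5 (3.40, interval 1.56 to 6.46) and cell 7 (4.19, interval 0.864 to 12.2) did not differ beyond counting error. All 4 beta genes were detected, with 4 molecules of Cacnb3, 2 of Cacnb2 and 1 of Cacnb1. Cacna2d1, an alpha-2-delta gene whose protein brings channels to the membrane and binds gabapentin, had 3 molecules each in cells 3 and 9 and 1 each in cells 1, 6 and 8. Outside the cells with markers of other types it thus kept 8 of its 9 molecules, while the calcium channel class as a whole kept 32 of 68. Cacna2d2 had 5 molecules and Cacna2d3 had 2. Of the 8 gamma genes, Cacng2, which encodes the AMPA receptor partner stargazin, had 6 molecules, split 3, 2 and 1 over cells 9, 5 and 8. Cacng4 had 1 molecule, found in cell 2, and the other 6 gamma genes were at 0.

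The Kv alpha genes held 63 molecules, from 20 of 40 genes (50%, against 41.4% of all gene names). Kcna6, of the Kv1 family of low-threshold channels, had 8 molecules, split 4, 3 and 1 over cells 5, 9 and 3. The Kv1 genes Kcna1, Kcna2 and Kcna5 had 3, 2 and 2, and Kcna3, Kcna4, Kcna7 and Kcna10 were at 0. Kcnd3 and Kcnd2 encode the A-type channels that delay firing. Kcnd3 was detected in 6 cells at 1 molecule in each but cell 9, which had 2, and Kcnd2 had 4 molecules, 2 from cell 7 and 1 each from cells 6 and 9. Together they were found in 8 of the 9 cells, all but cell 4.

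Genes of fast-spiking Kv3 channels were seen mainly in cell 6, with 3 of the 4 molecules of Kcnc1 and the only molecule of Kcnc2. Kcnc4 was at 0. Cell 6 also held all 3 molecules of Kcnh5, of the EAG family, and 1 of the 3 of its relative Kcnh1. Kcnh7, an ERG gene, had 2 molecules in cell 2. Over 696 of its 15226 exon bases it overlaps Gca on the other strand, which had 2 molecules, and reads from that stretch cannot be assigned without strand. Kcnq3 and Kcnq5, of the Kv7 family whose channels carry the M-current, were at 0. Of the 10 silent subunit genes, which form channels only with other Kv subunits, 3 were detected with 4 molecules in all. This was 30.0%, against 41.4% of all gene names.

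The Kv auxiliary genes held 38 molecules, of which 29 came from genes of KChIPs, calcium-binding proteins that attach to A-type channels. Kcnip1, on chromosome 11 at 33629339 to 33993152 (minus strand), had 14 molecules, split 7, 5 and 2 over cells 9, 3 and 1, and was at 0 in the other 6 cells. In cell 9 this was 8.94 per 10000 (interval 3.60 to 18.4). Kcnip4, on chromosome 5 at 48389502 to 49524907 (minus strand), had its most in a different cell, with 7 of 13 molecules in cell 7 (9.78 per 10000, interval 3.93 to 20.1). There were 2 molecules each from cells 5 and 9 and 1 each from cells 2 and 3. All 3 cells with Kcnip1 also held Kcnd3, which was found in 6 cells. Kcnip2 had 2 molecules in cell 3 and Kcnip3 had none. Kcnab2, a Kv1 beta subunit gene, had 8 molecules, 5 from cell 5 and 1 each from cells 2, 6 and 8. The 5 Kcne genes and Kcnrg were at 0.

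Calcium-activated channels were marked by an auxiliary gene. Kcnmb4, the neuronal beta subunit of the large-conductance BK channel, is at chromosome 10, 116417861 to 116473878 (minus strand). It had 5 molecules in cell 6, or 14.7 per 10000 (interval 4.79 to 34.4), and 4 in cell 9, or 5.11 (interval 1.39 to 13.1), and none in the other 7 cells. Kcnma1, the gene of the BK pore itself, had 5 molecules, 2 from cell 4 and 1 each from cells 2, 5 and 8, and none in the cells with Kcnmb4. A count of 0 allows up to 8.84 per 10000 in cell 6 and 3.83 in cell 9, so that Kcnma1 at the level of the other cells could have been missed there. Kcnmb1, otherwise a smooth muscle subunit, had 1 molecule in cell 8. Of the small-conductance genes, Kcnn3 had 1 molecule in cell 6, and Kcnn1, Kcnn2 and Kcnn4 were at 0. The sodium-activated relatives Kcnt1 and Kcnt2 had 2 molecules in cell 3 and 1 in cell 7.

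Genes of resting potassium conductance held few molecules, 7 for Kir and 6 for K2P. Detected were 26.7% of the Kir and 28.6% of the K2P genes, against 41.4% of all gene names. Of the Kir genes, Kcnj9, a G-protein-gated subunit, had 2 molecules in cell 3 and 1 in cell 5, while its partners Kcnj3 and Kcnj6 were at 0. Kcnj14 had 2 molecules in cell 4 and Kcnj2 had 1 in cell 7. Of 5 channel genes known mainly from glia, vessels or blood (Kcnj10, Kcnj16, Kcnj8, Kcnj13 and Kcnn4), Kcnj10, the astrocyte inward rectifier, was detected, at 1 molecule in cell 8, which also held the astrocyte and ependymal markers. The other 4 were at 0. Of the K2P genes, Kcnk2 had 2 molecules and Kcnk3 had 1, both in cell 9, Kcnk1 had 2 in cell 8, and Kcnk13 had 1 in cell 5. Kcnk9 and 9 more K2P genes had none.

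Pacemaker and leak channels were represented by a few genes. Hcn3, on chromosome 3 at 89146074 to 89160196 (minus strand), had 7 molecules, split 4, 2 and 1 over cells 9, 3 and 2. Hcn2, an HCN gene abundant in brain, had 1 molecule, in cell 6, and Hcn4 had none. All 7 molecules of Hcn3, and all 9 of the HCN class, lay in cells without many markers of another cell type, against 59 of 101 for the Kv class. Counts this small do not assign a gene to a cell type. Nalcn, whose channel carries the resting sodium leak, had 6 molecules, 4 from cell 5 and 1 each from cells 2 and 6. Catsperg1, an auxiliary gene of the sperm channel, had 1 molecule in cell 2. It has a close copy, Catsperg2, so its assignment is uncertain.

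The member with the most molecules encodes no channel. Kcnq1ot1 is a long non-coding RNA transcribed antisense to Kcnq1 from the paternal allele, on chromosome 7 at 143203458 to 143296549 (minus strand). Its 39 molecules were 12.5% of all member molecules (interval 9.01 to 16.6%). Cell 3 gave 9 of them, cells 2 and 5 gave 7 each, cell 8 gave 6, cell 7 gave 5, cell 1 gave 3 and cell 4 gave 2. It was at 0 in cells 6 and 9, where up to 8.84 and 3.83 per 10000 are allowed by a count of 0. The highest count, in cell 3, was a level of 8.39 per 10000 (interval 3.84 to 15.9). The exact Poisson intervals of cells 6 and 9 reach 10.9 and 4.71 and overlap it, while the limit of 3 molecules in cell 9, 3.83, falls just short of it. Kcnq1 itself, whose exons it overlaps by 121 bases, was at 0 in all 9 cells. In cells 6 and 9, the cells with the highest subunit levels, all member molecules came from subunit genes.

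Read per kilobase of exon, the order of the leading genes changed. Kcnip4 came first at 3.58 molecules per kilobase, followed by Kcnmb4 at 2.71, Kcnip1 at 2.26, Hcn3 at 1.69 and Cacnb4 at 1.56, with Scn2a1 at 1.26. Auxiliary genes are shorter, and on this scale alpha genes held 53.6% of the subunit total against 62.8% as molecules. How reads were collapsed is not given, so whether the counts grow with exon length is not known. The scale is an alternative and not a correction.

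Cell by cell, the detected sets differed. Sodium, calcium and Kv alpha molecules were present together in 6 cells (2, 3, 5, 6, 7 and 8). The counts named next are molecules, not scaled to depth. Leading subunit genes were Scn9a (7), Kcnip1 (5) and Cacna2d1 (3) in cell 3. In cell 9 they included Kcnip1 (7) with Hcn3 and Kcnmb4 (4 each), and in cell 6 Kcnmb4 (5), Scn2a1, Kcnc1 and Kcnh5 (3 each). In cell 7 they were Kcnip4 (7) with Cacnb4, Cacna1g and Scn8a (3 each). In cell 5, the deepest, they included Cacnb4 (9), Kcnab2 (5) and Kcna6, Nalcn and Scn2a1 (4 each). Per 10000 gene molecules Scn2a1 was nonetheless 1.51 in cell 5 against 8.84 in cell 6, and Kcna6 was 1.51 against 3.83 in cell 9. Cell 2 had no gene but Kcnq1ot1 above 3 molecules, although it had the most channel genes. As examples of overlap, cells 2 and 5 shared 13 of their 26 and 25 detected subunit genes, and cells 3 and 9 shared 9 of 21 and 17. The same overlap over all gene names was not counted. In 52.9% of the pairs of a cell and a detected member the count was 1, and the part of sampling in these differences was not tested.

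Proteins that anchor or assemble these channels were also counted. Of 26 partner genes outside the symbol rule, 21 were detected (80.8%) and 4 were found in at least 5 cells (15.4%). The shares of all gene names were 41.4% and 7.00%. The list was chosen with earlier results of these data known, so the difference is not read as a result. Ank3, which encodes ankyrin-G, the anchor of sodium and Kv7 channels at the axon initial segment, had 38 molecules in 8 cells, with 14 in cell 5. Dpp6, an auxiliary subunit of A-type channels, had 19 molecules in 7 cells, and its relative Dpp10 had 8. Unc80, a subunit of the NALCN complex, had 15 molecules in 7 cells, 7 of them in cell 2, against 6 molecules of Nalcn in 3 cells. Sptbn4, the spectrin of initial segments, had 9 of 13 molecules in cell 9. The general spectrin gene Sptbn1 had 77 molecules in all 9 cells, with the most, 19, in cell 4. Of 64 other ion channel genes, such as those of TRP, chloride and calcium release channels, 21 were detected (32.8%). In at least 5 cells 1 was found (1.56%), Clcn3, with 19 molecules.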

How the data were processed

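Whole-number counts per gene were analysed in 9 cells, from 1 table deposited by the authors with 24378 gene rows and 92 spike-in rows. Bowtie and the build mm10 are listed in the submitters' processing notes. How duplicate reads were collapsed and whether strand was used in counting are not given in the sources used here. Columns were assigned to cells by the cell number in their names, and 0 columns were left unassigned. No member was split over numbered loci. For other gene names the locus with the highest count in each cell was taken, and totals used all gene rows. No doublet caller was run on 9 cells, and cells with markers of several types were kept. Levels are molecules per 10000 gene molecules. Exact 95% Poisson and Clopper-Pearson intervals cover counting error only, and a count of 0 was given a limit of 3 molecules unless an exact interval is named. Thinning used the hypergeometric expectation and was tested on simulated data. All 148 members were placed in GENCODE M21 (GRCm38/mm10), Scn2a1 under its current symbol; lengths are the union of annotated exons. Antisense overlaps of Scn9a and Hcn3, and that of Kcnip4 with 5730480H06Rik, involved genes of the table with no molecule. Kcnip4 also overlaps, by 99 exon bases, an antisense gene that is not in the table. Larger antisense overlaps with genes outside the table included 2355 exon bases of Kcna6, 1433 of Cacnb4, and 355 and 693 of Kcnmb4. Reads from these stretches cannot be assigned without strand.

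The members and gene lists were chosen with earlier results of these data known. Named genes were those with at least 8 molecules or in at least 5 cells, the leading 3 of each class, and well-known neuronal and glial channels. Other genes appear in counts by class, or were picked after their values were seen. Some members are counted in the sums but are not reported here by name. No explanation was tested and no p-value was computed, since the 9 cells are 1 sample. Alternatives were detection limits, thinning, totals, weighting of cells, length, definitions of members and leaving out each cell. Leaving out cells 4, 5, 7 and 8 or cells 1, 4, 6 and 7, handling of Kcnq1ot1, 1 locus per name and spike-in scaling were chosen after seeing the data. The work used matplotlib 3.10.9, scipy 1.17.1, pandas 2.3.3 and numpy 2.4.6 under Python 3.11.15.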

Additional observations from a re-analysis of the deposited data

Results flagged for a closer look

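Of 25 measures examined over the 9 cells (the level with and without Kcnq1ot1, the number detected, the alpha share, 7 class levels and the counts of 14 leading genes), 7 had 1 cell whose gap to the nearest other cell, as a share of the whole range, exceeded Dixon's critical value at 95% for 9 values. Chance flags about 1 in 20 such groups when values are normally distributed, and small counts with many zeros are not. The calcium-activated class reached 17.7 molecules per 10000 in cell 6, which rests on 5 molecules of Kcnmb4 and 1 of Kcnn3, and the K2P class reached 3.83 in cell 9, which rests on 3 molecules. By molecules, not scaled to depth, the same held for 9 of Cacnb4 and 5 of Kcnab2 in cell 5, 7 of Kcnip4 in cell 7, 7 of Scn9a in cell 3 and 2 of Kcnd3 in cell 9, the last by 1 molecule. Per 10000 gene molecules, cell 5 was not the highest for Cacnb4 (3.40 against 4.19 in cell 7) or Kcnab2 (1.89 against 2.95 in cell 6), nor cell 9 for Kcnd3 (2.56 against 9.79 in cell 1). Kcnip4 in cell 7 and Scn9a in cell 3 were the highest on that scale too, at 9.78 and 6.52.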

How the results depend on the processing

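Of 87 alternative values of the 5 main results, 69 stayed within 1.5 times the count or within the counting interval of the value reported. Summing loci could not change a value, since no member was split over numbered loci. Values that leave out 1 cell share all their cells with the main value. The 69 are thus no measure of how firm the results are. The number of detected genes was 43 at 2 molecules and 21 at 3. The number in at least 5 cells was 2 at 2 molecules, 1 at 3 molecules and 2.90 as an expectation after thinning, and ranged from 4 (without cell 9) to 6 when 1 cell was left out. Without cells 1, 4, 6 and 7, where Scgn was at 0, 16 genes were in at least 3 of 5 cells. This choice drops cells 1 and 6, the shallowest, and the same count over all gene names was not made. The level of 34.3 per 10000 was 39.0 without mitochondrial genes in the total, 41.1 without mitochondrial and ribosomal-protein genes, 45.0 as the mean and 47.5 as the median of the cells, 52.5 without cells 4, 5, 7 and 8, and 30.0 without Kcnq1ot1. The alpha share was 53.6% per kilobase of exon, 70.2% without KChIPs and other binding proteins, and 54.95% with Kcnq1ot1 in the total. The potassium share was 60.05% per kilobase of exon and 42.45% without KChIPs. The changes with the detection limit, the totals and the members follow from how these alternatives are built, and the cause of the others was not tested. No paired analysis was possible because the cells form 1 group. Depth limits every statement on a gene at 0, most of all in cells 1 and 6.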

Other observations

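Detected channel genes were long. The median genomic span was 96.2 kb in the 68 detected subunit genes and 21.6 kb in the 79 that were not detected, against 25.9 kb and 11.3 kb for detected and undetected gene names of the whole table. Scaled by spike-ins, member molecules per 1000 spike-in molecules were 73.3 in cell 9 and 3.95 to 30.7 in the other cells. Cell 9 had 614 spike-in molecules against 1962 to 2184 in the others and is the only cell that its column name places on lane 4, so lane and cell cannot be told apart.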
